A study of Mus musculus with 12 samples.

Results

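The 8 genes described here govern how a cell senses sterols and how the liver moves cholesterol in and out: Srebf2, Scap, Insig1, Insig2, Abcg5, Abcg8, Abca1 and Scarb1. They were chosen by name, and every non-control probe whose RefSeq record belongs to 1 of them was taken, which gave 11 probes among the 39429 probes and 8 symbols among the 20297 symbols of the array. Srebf2, Insig2 and Scarb1 had 2 probes each and the other genes 1. Each probe was printed as 1 spot, none of the spots was flagged, and all 11 probes were well above background in both dyes on all 12 arrays.

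The arrays measured liver RNA of male db/db mice, which lack the functional leptin receptor and become obese and diabetic, aged 8 weeks in the labels. Molecular hydrogen (H2) was given in 2 ways. MgH2, a powder that releases H2 on contact with water, was given by stomach gavage once a day for 1, 3 or 7 days, at 0.9 mg/kg in the labels, and its control in the study's methods was Mg(OH)2. H2-water, drinking water holding 0.8 mM H2, was given freely for 14 days, and its control was the same water with the gas stirred out. Each of the 4 groups had 3 arrays, and each array set a pool of 3 treated mice (Cy5, the red dye) against a pool of 3 control mice (Cy3, the green dye), so that 9 mice stood behind each group. All values below are log2 ratios of treated over control unless a level is named, and a value of 0 means equal signal. The dyes were never swapped, so a dye bias of a probe stays in its ratio and cannot be told apart from the treatment. Agent, route, duration, slide and software version all differed between H2-water and MgH2 and cannot be told apart either.

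In the liver, SREBP-2, the product of Srebf2, switches on the genes of cholesterol synthesis. Scap carries the SREBP precursor out of the endoplasmic reticulum for cleavage when sterols are low, while the Insig proteins hold the pair back when sterols are plentiful. Insig1 is itself a target of SREBP, whereas Insig2 in the liver is known for its response to insulin and fasting. Abcg5 and Abcg8 form the transporter that secretes sterols into bile, Abca1 loads cholesterol onto nascent HDL, and Scarb1 encodes SR-BI, the receptor that takes cholesteryl ester from HDL.

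RefSeq start sites (GRCm38.p6) were matched for 7 of the 8 genes, all but Scarb1, with 11 starts in all. The 250 bases upstream of each start are shown for the sterol sensing genes Srebf2, Insig1 and Insig2, but not for Scap. These stretches hold letters by which sterol and general factors are usually searched. The gap between Abcg5 and Abcg8 is shown because Abcg5 and 1 of the 2 Abcg8 starts lie at its ends. Capitals mark matches on either strand to the letters ATCACCCCA or TCACNCCAC (forms of the sterol regulatory element), ATTGG (the inverted CCAAT box), GGGCGG (the GC box) and CACGTG (an E-box). Sequences run 5′ to 3′ on the gene's strand.
Srebf2, chr15:82147019-82147268, plus strand: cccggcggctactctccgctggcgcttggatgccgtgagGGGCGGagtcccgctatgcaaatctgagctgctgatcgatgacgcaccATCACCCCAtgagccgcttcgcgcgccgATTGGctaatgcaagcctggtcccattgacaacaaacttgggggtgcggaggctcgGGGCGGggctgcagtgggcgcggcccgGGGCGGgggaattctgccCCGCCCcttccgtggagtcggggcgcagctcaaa
Insig1, chr5:28071162-28071411, plus strand: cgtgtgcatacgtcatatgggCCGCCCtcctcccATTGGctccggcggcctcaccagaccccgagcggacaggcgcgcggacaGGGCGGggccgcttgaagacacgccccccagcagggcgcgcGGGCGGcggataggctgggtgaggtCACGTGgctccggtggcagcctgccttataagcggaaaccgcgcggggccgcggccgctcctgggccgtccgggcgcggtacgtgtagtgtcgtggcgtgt
Insig2, most upstream start, chr1:121332590-121332839, minus strand: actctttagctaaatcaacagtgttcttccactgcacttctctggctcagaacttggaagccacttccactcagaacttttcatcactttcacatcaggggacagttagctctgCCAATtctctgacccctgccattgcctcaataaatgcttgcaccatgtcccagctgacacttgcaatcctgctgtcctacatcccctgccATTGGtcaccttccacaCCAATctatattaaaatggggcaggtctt
Insig2, middle start, chr1:121328025-121328274, minus strand: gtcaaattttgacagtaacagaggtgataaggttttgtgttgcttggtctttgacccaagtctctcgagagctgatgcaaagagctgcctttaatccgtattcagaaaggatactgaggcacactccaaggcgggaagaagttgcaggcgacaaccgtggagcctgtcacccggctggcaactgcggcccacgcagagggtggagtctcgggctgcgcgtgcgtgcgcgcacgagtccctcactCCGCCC
Insig2, most downstream start, chr1:121327679-121327928, minus strand: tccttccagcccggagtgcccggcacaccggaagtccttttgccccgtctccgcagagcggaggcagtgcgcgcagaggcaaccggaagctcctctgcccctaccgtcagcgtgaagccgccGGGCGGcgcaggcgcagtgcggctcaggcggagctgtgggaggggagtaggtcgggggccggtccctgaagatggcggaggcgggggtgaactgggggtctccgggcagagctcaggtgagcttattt
Abcg5 to Abcg8 gap, chr17:84683012-84683120, plus strand: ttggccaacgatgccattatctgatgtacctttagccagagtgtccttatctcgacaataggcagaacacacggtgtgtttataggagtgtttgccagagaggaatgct
The 9 letters ATCACCCCA occurred upstream of Srebf2, at bases 163 to 155 before its start, and in 0.24% of all 32851 upstream windows of that length. TCACNCCAC matched none of the 11 windows of these genes and 1.05% of all windows. The inverted CCAAT box was held by 33.8% of all windows, the GC box by 32.7% and the E-box by 6.02%. Insig1 had 1 E-box, at bases 101 to 96 before its start. So did Abca1, at bases 147 to 142, and 1 of the 2 Scap starts, at bases 40 to 35, whose sequences are not shown. The gap between the divergent Abcg5 and Abcg8 starts was 109 bases long and matched none of these letters. Beyond the gap, the window of this Abcg8 start held inverted CCAAT boxes at bases 175 to 171 and 114 to 110 before the start. The other of the 2 Abcg8 starts lies further upstream, and its window matched none of these letters. A match is a match of letters and not a tested binding site.

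Over the 8 genes, each by its brightest probe, the median log2 ratio was 0.096 at 1 day of MgH2, 0.11 at 3 days, 0.055 at 7 days and 0.0072 at 14 days of H2-water. The medians over all probes tested were -0.0033, 0.0022, 0.0059 and -0.0049. By limma with Benjamini-Hochberg adjustment, 1 of the 11 probes was changed at 1 day (9.09%, against 9.38% of all probes tested). At 3 days 2 probes were changed (18.2%, against 23.4%), at 7 days 3 probes (27.3%, against 29.5%) and at 14 days 0 (against 8.83%). The members were therefore called about as often as the array as a whole, and every called member was higher in treated liver. Of all probes tested, 5.15% rose and 4.23% fell at 1 day, 12.3% rose and 11.1% fell at 3 days, 15.3% rose and 14.2% fell at 7 days, and 4.92% rose and 3.9% fell at 14 days. The called genes were Abcg8 at 1 day and Insig2 and Scarb1 at 3 and 7 days. At 14 days 1 probe, that of Abca1, had an unadjusted P under 0.05. The share of all probes at an unadjusted P under 0.05 is not given here, so counts at that threshold cannot be set against the array.

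**Figure D1:**
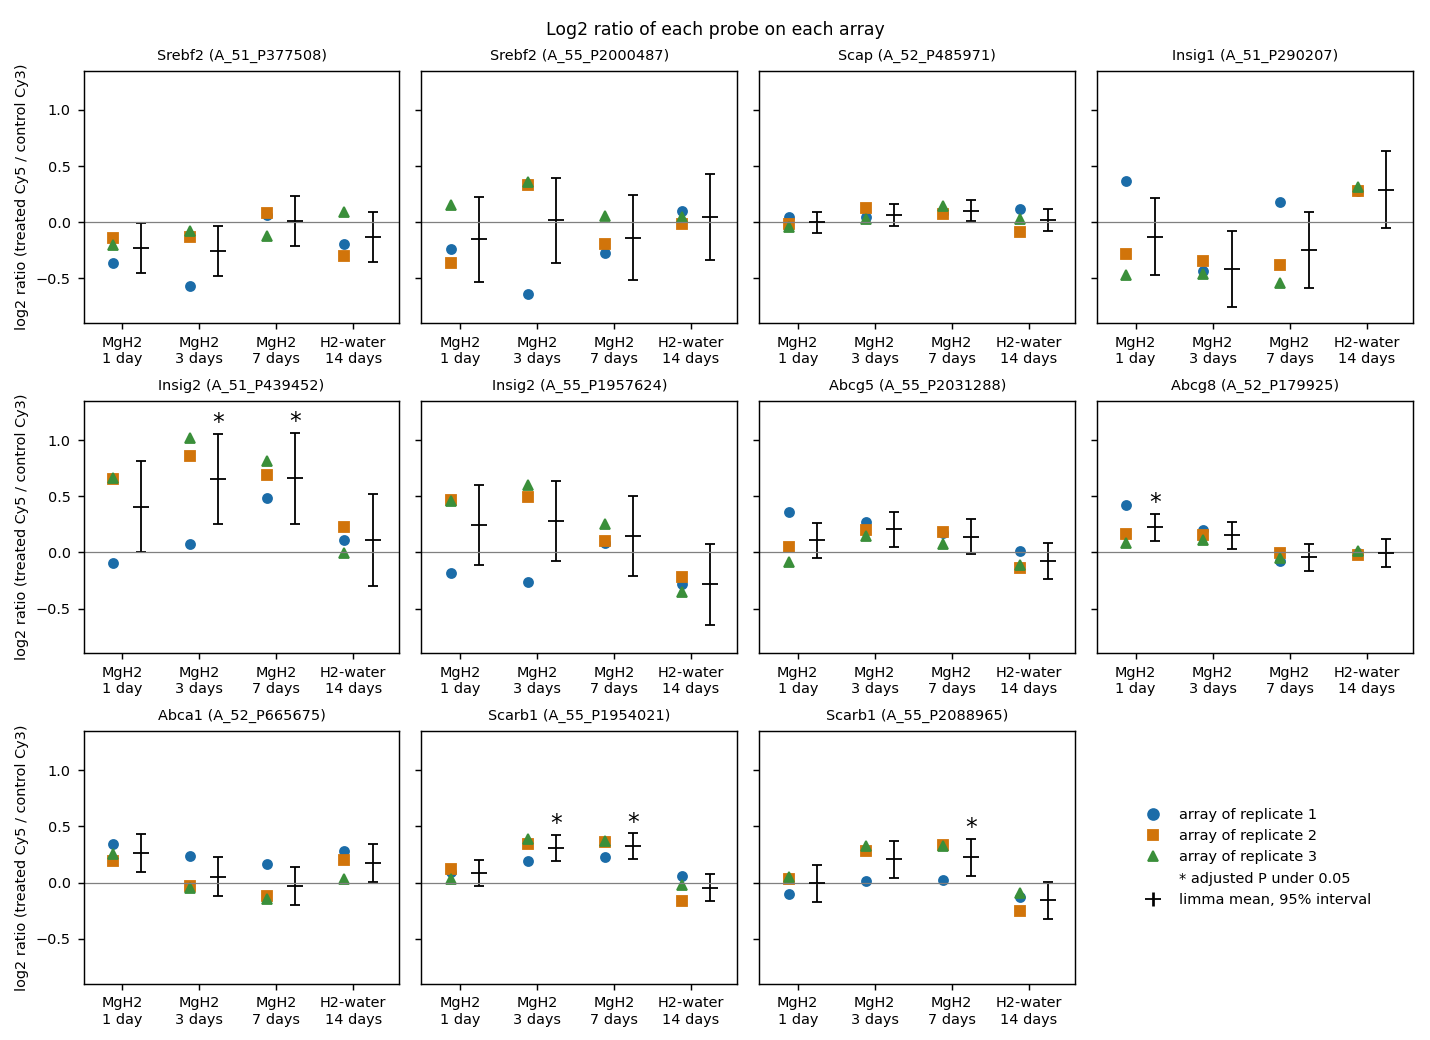
Log2 ratio of treated over control (vertical axis) for each of the 11 probes on each of the 12 arrays, by group (horizontal axis). Coloured symbols are single arrays by replicate number, black bars are limma means with 95% intervals and asterisks mark adjusted P under 0.05. Replicate 1 lies lowest for both Insig2 probes on every MgH2 day, and both Scarb1 probes are above 0 on all 6 arrays of 3 and 7 days.

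Srebf2, the gene of the sterol-regulated transcription factor, was below 0 on most early arrays of its first probe. On probe A_51_P377508 the ratios were -0.36, -0.14 and -0.20 at 1 day, -0.57, -0.13 and -0.08 at 3 days, 0.07, 0.08 and -0.12 at 7 days, and -0.19, -0.30 and 0.10 at 14 days. All 6 arrays of the first 3 days were below 0, yet the means of -0.23 ± 0.0998 (SE, n = 3) at 1 day and -0.26 ± 0.0996 at 3 days did not pass the test (limma adjusted P = 0.174 and 0.0873). With normexp background correction and loess normalisation the 3-day value was -0.22 and passed (adjusted P = 0.014). The second probe, A_55_P2000487, had signals of only 18.4 to 40.3 units and spread from -0.64 to 0.36 over the 3 arrays of 3 days. Its group means lay between -0.15 and 0.04, and none was called.

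Scap, the escort of SREBP, was the steadiest of the 8. Its probe A_52_P485971 read 0.05, -0.01 and -0.04 at 1 day, 0.05, 0.12 and 0.02 at 3 days, 0.08, 0.08 and 0.15 at 7 days, and 0.12, -0.09 and 0.03 at 14 days. The largest mean, 0.10 at 7 days (95% interval 0.0074 to 0.196), was not called (adjusted P = 0.0978). At 1 day the interval ran from -0.0956 to 0.0932, so a change of Scap beyond 0.10 on the log2 scale lay outside it in either direction.

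Insig2 held the largest ratios of the 8 genes, and both its probes were higher in treated liver on most MgH2 arrays. On probe A_51_P439452 the ratios were -0.10, 0.66 and 0.66 at 1 day, 0.08, 0.86 and 1.02 at 3 days, and 0.48, 0.69 and 0.81 at 7 days, against 0.11, 0.22 and -0.00 at 14 days of H2-water. Replicate 1 was the lowest array on each MgH2 day, and at 1 and 3 days it stood near 0 while the others stood near or above 0.66. The means were 0.41 ± 0.182 (SE, n = 3) at 1 day, 0.65 ± 0.182 at 3 days, 0.66 ± 0.182 at 7 days and 0.11 ± 0.184 at 14 days. Those of 3 and 7 days passed the test, a 1.57-fold and a 1.58-fold higher signal (adjusted P = 0.0279 and 0.0216), while 1 day did not (adjusted P = 0.189).

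The second Insig2 probe, A_55_P1957624, is assigned to another RefSeq record of the gene. It read -0.18, 0.46 and 0.46 at 1 day, -0.27, 0.49 and 0.60 at 3 days, 0.09, 0.10 and 0.26 at 7 days, and -0.28, -0.22 and -0.36 at 14 days. It stood above 0 on the same 2 replicate numbers, and below 0 on all 3 arrays of H2-water, but none of its means was called. Its 7-day mean of 0.15 (95% interval -0.207 to 0.504) was lower than the 0.66 of the first probe, so the probes differed in size there, and no test was run between probes. The call of the first probe rested on few arrays. At 3 days it was 0.94 (adjusted P = 0.00854) without replicate 1, 0.55 (0.151) without replicate 2 and 0.47 (0.171) without replicate 3. At 7 days it was not called after leaving out any 1 array, with 0.75 (adjusted P = 0.0519), 0.65 (0.0833) and 0.59 (0.118) without replicates 1, 2 and 3. The second probe at 3 days was called without replicate 1 (0.55, adjusted P = 0.0281). Ordered by the first probe's means, 7 days stood highest, then 3 days, 1 day and 14 days, and no neighbours in that order differed (adjusted P = 1, 0.712 and 0.695).

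The spread of the Insig2 ratios between replicate numbers went mostly with the control channel, though treated levels varied between days as well. Read as levels, that is log2 signal minus the 75th percentile of the same channel, the Cy3 control of A_51_P439452 was 5.23, 5.31 and 5.24 on the replicate 1 arrays of 1, 3 and 7 days. It was 4.78, 4.68 and 4.72 on the replicate 2 arrays and 4.67, 4.60 and 4.65 on the replicate 3 arrays. The control level therefore followed the replicate number and hardly the day. The Cy5 treated levels were 5.14, 5.40 and 5.73 for replicate 1, 5.45, 5.55 and 5.43 for replicate 2, and 5.34, 5.63 and 5.47 for replicate 3, which overlapped between the numbers. At 14 days the control levels of 5.15, 5.18 and 5.29 lay beside treated levels of 5.26, 5.40 and 5.28. The second probe gave control means of 3.93, 3.50 and 3.28 for replicates 1, 2 and 3 over the MgH2 days, and treated means of 3.82, 3.87 and 3.73.

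This pattern was not particular to Insig2. Over the probes above background on all arrays, deviations of the Cy3 levels from their group means correlated between same-numbered arrays of different MgH2 days with r from 0.322 to 0.671 (9 pairs, across probes, which are not independent replicates). For the Cy5 levels r ran from -0.296 to 0.176, and for Cy3 between MgH2 and H2-water arrays from 0.0531 to 0.236. The labels name a control for each day, and whether the 3 MgH2 days drew on the same control RNA is not given in the sources used here. If they share it, the MgH2 days are not independent of each other. The means of the 3 days are therefore set side by side and not pooled. Their spread was still pooled, since a single limma fit of all arrays gave the SEs and P-values. Shared control RNA would make the deviations in that fit dependent, which the P-values do not allow for. With only the arrays of 3 days fitted, Insig2 A_51_P439452 and Scarb1 A_55_P1954021 were not called (adjusted P = 0.142 and 0.0777). With only those of 7 days, both stayed called. The part of shared control RNA in this was not tested, as such fits also hold fewer arrays. Channels were looked at separately after the ratios had been seen, and no test was made on them.

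**Figure D2:**
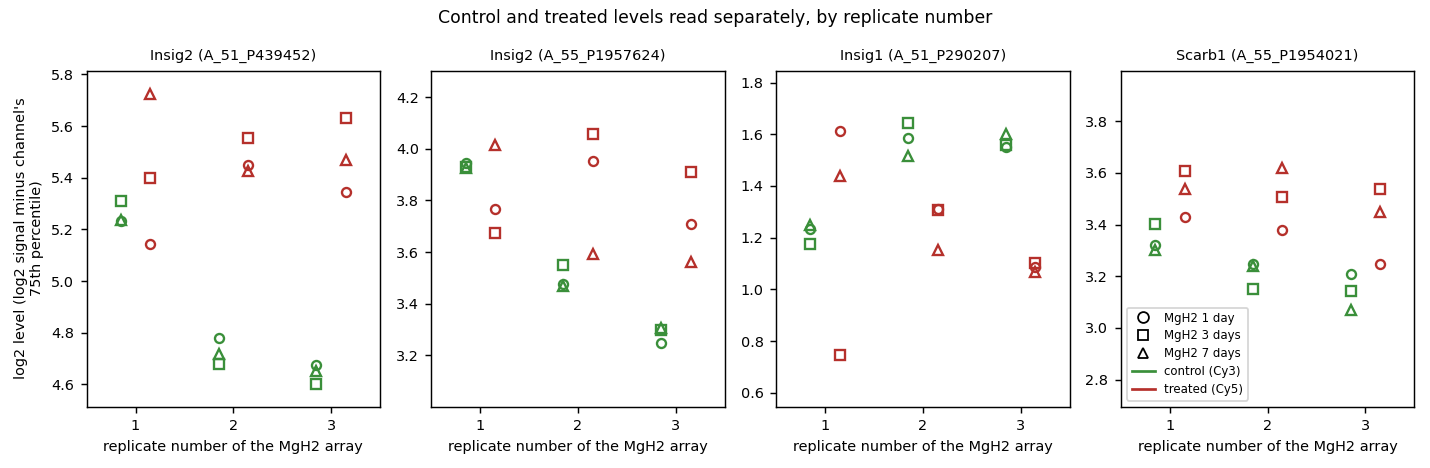
Control (Cy3, green) and treated (Cy5, red) levels on the 9 MgH2 arrays, as log2 signal minus the 75th percentile of the channel (vertical axis), by replicate number (horizontal axis), with symbols for the day. Green symbols of 1 replicate number lie close together whatever the day, as for Insig2 probe A_51_P439452 at 5.23 to 5.31 for replicate 1 and 4.60 to 4.67 for replicate 3.

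Insig1, the SREBP-responsive partner of Insig2, moved the other way on most MgH2 arrays. Its probe A_51_P290207 read 0.37, -0.29 and -0.47 at 1 day, -0.44, -0.35 and -0.46 at 3 days, 0.18, -0.38 and -0.54 at 7 days, and 0.28, 0.28 and 0.32 at 14 days. All 3 arrays of 3 days were below 0 and all 3 of H2-water were above 0, and these groups did not overlap. How large a share of all probes does the same is not given here. The means were -0.13 ± 0.153 (SE, n = 3), -0.42 ± 0.153, -0.25 ± 0.153 and 0.29 ± 0.155. None was called (adjusted P = 0.651, 0.0753, 0.253 and 0.287). With the 14-day arrays fitted alone, with an SD of 0.0231, the 14-day value passed (adjusted P = 0.0483). The difference between H2-water and 3 days of MgH2 was 0.71 (95% interval 0.229 to 1.18, adjusted P = 0.105), and passed with the arrays of these groups alone (adjusted P = 0.029). That between H2-water and 7 days was 0.54 (0.059 to 1.01, adjusted P = 0.154). Control levels again followed the replicate number, at 1.22 for replicate 1 against 1.58 and 1.57 for replicates 2 and 3 over the MgH2 days. The treated level on the replicate 1 arrays ranged from 0.75 at 3 days to 1.61 at 1 day.

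Of the export genes, Abcg8, a subunit of the biliary sterol transporter, was called at 1 day. Its probe A_52_P179925 read 0.42, 0.16 and 0.09 at 1 day, 0.20, 0.15 and 0.11 at 3 days, -0.08, -0.01 and -0.05 at 7 days, and -0.00, -0.03 and 0.01 at 14 days. All 6 arrays of 1 and 3 days were above 0, all 3 of 7 days were below it, and the highest single value was replicate 1 of 1 day. What share of all probes separates like this is not given here, so it is a description only. In the main limma fit, 7 days was not called different from 1 day (adjusted P = 0.0638) or from 3 days (adjusted P = 0.979). The mean at 1 day was 0.22 ± 0.0548 (SE, n = 3), a 1.17-fold higher signal (adjusted P = 0.0324), and that at 3 days was 0.15 ± 0.0547 (adjusted P = 0.0695). The 1-day call was lost without replicate 1 (0.12, adjusted P = 0.121) and without replicate 2 (0.26, adjusted P = 0.0935). It was also lost when each channel was divided by its total (0.19, adjusted P = 0.0563) and with normexp and loess (0.16, adjusted P = 0.0704). The processed signals of this probe were 136 to 304 units.

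Abcg5, the partner transcribed from the other side of the gap shown above, was measured by probe A_55_P2031288. It read 0.36, 0.05 and -0.09 at 1 day, 0.27, 0.20 and 0.15 at 3 days, 0.17, 0.18 and 0.07 at 7 days, and 0.01, -0.14 and -0.11 at 14 days. All 6 arrays of 3 and 7 days were above 0, and 2 of the 3 H2-water arrays were below it. The means of 0.11, 0.20, 0.14 and -0.08 were not called. The 3-day value of 0.20 ± 0.071 (SE, n = 3) had an adjusted P of 0.0623, and of 0.0458 with the slide as a random block, where it was 0.21. The difference of H2-water from 3 days was -0.28 (95% interval -0.507 to -0.0623, adjusted P = 0.146).

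Abca1, the exporter to nascent HDL, read 0.34, 0.19 and 0.25 at 1 day, 0.24, -0.03 and -0.05 at 3 days, 0.16, -0.12 and -0.15 at 7 days, and 0.29, 0.20 and 0.03 at 14 days on probe A_52_P665675. All arrays of 1 day and of H2-water were above 0, and only replicate 1 was above 0 at 3 and 7 days. The means were 0.26 ± 0.0765 (SE, n = 3) at 1 day, 0.05 ± 0.0764 at 3 days, -0.03 ± 0.0764 at 7 days and 0.17 ± 0.0771 at 14 days. None was called, 1 day being nearest (adjusted P = 0.0597). It passed with normexp and loess (0.28, adjusted P = 0.0255) and with the slide as a random block (0.28, adjusted P = 0.0264).

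Scarb1, the HDL receptor gene, had the lowest P-values of the 8. On probe A_55_P1954021 the ratios were 0.10, 0.12 and 0.04 at 1 day, 0.20, 0.35 and 0.39 at 3 days, 0.23, 0.36 and 0.37 at 7 days, and 0.06, -0.17 and -0.02 at 14 days. Every array of 3 and 7 days stood above every array of 1 and 14 days. The share of all probes that separate in this way is not given here, so the separation is a description only. The means were 0.09 ± 0.0524 (SE, n = 3), 0.31 ± 0.0523, 0.32 ± 0.0523 and -0.04 ± 0.0526. Scarb1 rose 1.24-fold at 3 days and 1.25-fold at 7 days (adjusted P = 0.0034 and 0.00177). These calls held in each of the 3 fits per day that left out 1 array of that day, with values of 0.27 to 0.37 at 3 days and 0.30 to 0.37 at 7 days. With the 3-day arrays fitted alone the value had an adjusted P of 0.0777. In the order 7 days, 3 days, 1 day and 14 days, no neighbours differed (adjusted P = 1, 0.197 and 0.525). Control levels were 3.34, 3.21 and 3.14 for replicates 1, 2 and 3 over the MgH2 days, a smaller spread than for Insig2.

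The second Scarb1 probe, A_55_P2088965, was also above 0 on all 6 arrays of 3 and 7 days. It read -0.10, 0.03 and 0.05 at 1 day, 0.02, 0.28 and 0.33 at 3 days, 0.02, 0.33 and 0.33 at 7 days, and -0.12, -0.25 and -0.10 at 14 days. Its mean was 0.21 ± 0.0746 (SE, n = 3) at 3 days (adjusted P = 0.0707), 0.23 ± 0.0746 at 7 days (adjusted P = 0.0441) and -0.16 ± 0.0752 at 14 days (adjusted P = 0.234). Only the 7-day mean was called, and that call was lost without replicate 2 (0.17, adjusted P = 0.21) or replicate 3 (0.18, adjusted P = 0.227). At 3 days the probe was called without replicate 1 (0.30, adjusted P = 0.0345). Divided by channel totals, its 7-day value was 0.20 (adjusted P = 0.0599), and with arrays centred on the median of all probes 0.11 (0.371).

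Differences between groups were then tested. Between 3 days and 1 day of MgH2, 0 of the 11 probes was called (against 0.0208% of all probes tested), and 1 had an unadjusted P under 0.05. Between 7 and 3 days limma again called 0 (against 0% of all), with 1 at an unadjusted P under 0.05. Between 7 days and 1 day limma called 0 (against 6.95%), with 3 at an unadjusted P under 0.05. These were Abcg8 (-0.27, adjusted P = 0.0638), Abca1 (-0.30, adjusted P = 0.121) and Scarb1 A_55_P1954021 (0.24, adjusted P = 0.0801). With the replicate number as a block, which the shared pattern of the numbers allows, 2 of the 11 were called (18.2%), against 13.4% of all probes tested in that fit. Abcg8 was then lower at 7 days than at 1 day by -0.27 (adjusted P = 0.0481) and Abca1 by -0.30 (adjusted P = 0.022). No slide held arrays of both 1 and 7 days. On the slide that carried 2 arrays each of 3 and 7 days, Scarb1 A_55_P1954021 was lower at 7 days by -0.07 and Insig2 A_51_P439452 by -0.36. There the 3-day arrays were replicates 2 and 3 and the 7-day arrays replicates 1 and 2, so day is mixed with replicate number. On replicate 2, held by both days, Insig2 read 0.86 at 3 days and 0.69 at 7 days, and Scarb1 0.35 and 0.36. On the slide with all arrays of 1 day and 1 of 3 days, the same probes gave 0.11 and -0.33 for 3 days minus 1 day, the lone array being replicate 1.

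H2-water and MgH2 differed for 1 gene. Against 7 days of MgH2 1 of 11 probes was called (9.09%, against 6.61%), Scarb1 A_55_P1954021, lower with H2-water by -0.37 (95% interval -0.53 to -0.203, adjusted P = 0.0238). The second Scarb1 probe differed by -0.38 (-0.618 to -0.151, adjusted P = 0.0567). Against 3 days the first probe was again the 1 called (9.09%, against 2.44%, with 1.23% higher and 1.2% lower), at -0.35 (-0.516 to -0.189, adjusted P = 0.0423), and the second gave -0.37 (adjusted P = 0.0903). Against 1 day 0 probes were called by limma (against 0.0747%), with 2 at an unadjusted P under 0.05. The Scarb1 difference from 7 days was not called with the arrays of these groups alone (adjusted P = 0.0599) or with arrays centred on the median of all probes (-0.19, adjusted P = 0.19). Under that centring the median over all probes tested was 0.17, against -0.01 without it, and Insig1 (0.72, adjusted P = 0.0338) and Abca1 (0.39, adjusted P = 0.0248) were called higher with H2-water. Without a single array it ranged from -0.42 to -0.30 and was lost without 7-day replicate 2 (-0.35, adjusted P = 0.0555) or 3 (-0.34, 0.0909) and without 14-day replicate 2 (-0.30, 0.0808) or 3 (-0.38, 0.0668). The difference from 3 days ran from -0.41 to -0.29 and was lost in 5 of 6 such fits, all but that without 3-day replicate 1. It was also lost with the arrays of these groups alone (adjusted P = 0.103). The contrasts of 14 days with 3 days and with 1 day were added after the values had been seen. For Insig2 the differences from 7 days, -0.55 and -0.43 on the 2 probes, had adjusted P of 0.214 and 0.265, and the second passed with the arrays of these groups alone (adjusted P = 0.0461).

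**Figure D3:**
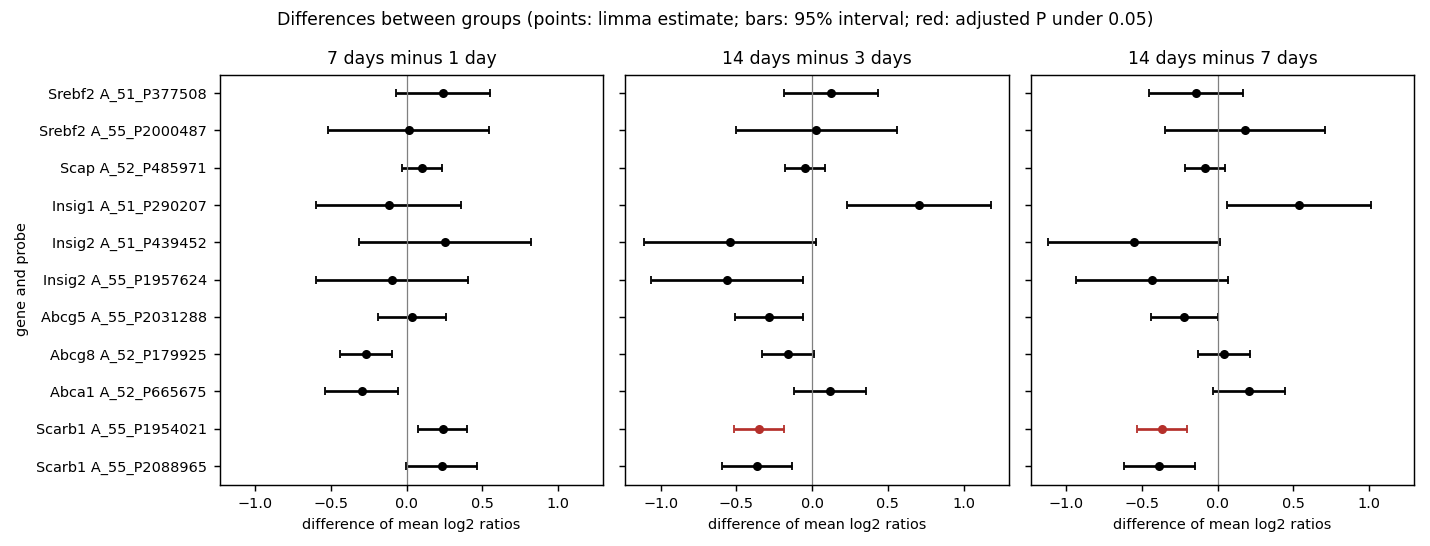
Differences of mean log2 ratio between groups (horizontal axis) for the 11 probes (vertical axis), with limma estimates as points, 95% intervals as bars and adjusted P under 0.05 in red. Scarb1 A_55_P1954021 is the red point in both H2-water panels, at -0.35 and -0.37.

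The surroundings of the 8 genes were read from 4 lists of other genes. Of 17 enzymes of sterol synthesis from mevalonate onward, the main targets of SREBP-2, 3 fell and 0 rose at 1 day, 5 fell and 0 rose at 3 days, and 3 fell and 0 rose at 7 days of MgH2. At an unadjusted P under 0.05 by limma, 11, 7 and 3 were lower and 0 higher on these days. For this and the other lists, the unadjusted counts have no share of all probes beside them and are descriptions only. The list medians were -0.32, -0.26 and -0.11, and at 1 day all 17 means were below 0. Mvd, which makes isopentenyl pyrophosphate, fell by 0.96 at 3 days and by 0.93 at 7 days on the log2 scale (adjusted P = 0.00431 and 0.00326). Fdps, which makes farnesyl pyrophosphate, fell by 0.54 and 0.52, and Sc5d, a late desaturase, by 0.46 and 0.37. Dhcr7 (-0.40), Nsdhl (-0.32) and Hsd17b7 (-0.32), all late-step enzymes, were those lower at 1 day, and Nsdhl was lower at 3 days too (-0.34). With H2-water all 16 means tested lay above 0, from 0.02 to 0.53 with a median of 0.25, and 1 rose and 0 fell (7 and 0 at an unadjusted P under 0.05). That 1 was Tm7sf2, a sterol reductase, at 0.29 (adjusted P = 0.025). Between H2-water and 3 days of MgH2, 3 of the 16 were called higher and 0 lower (12 and 0 unadjusted), and against 1 day 0 were called by limma (14 higher unadjusted). Insig1 stood on the same side of 0 as the list median in each of the 4 groups, and Srebf2 A_51_P377508 did so at 1 and 3 days.

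Among 21 genes of SREBP processing and turnover, 2 rose and 0 fell at 1 day, 4 rose and 4 fell at 3 days, 5 rose and 7 fell at 7 days, and 3 of 20 rose and 0 fell with H2-water. Unadjusted, 0 were lower at 1 day and 1 was lower with H2-water. Srebf1, the gene of SREBP-1 and the sister of Srebf2, fell by 0.60 at 3 days and by 0.86 at 7 days (adjusted P = 0.00753 and 0.00089). Mbtps2, the site-2 protease that releases SREBP from the membrane, rose by 0.57 and 0.68 (adjusted P = 0.0013 and 0.000332). Sec24c, a COPII coat subunit, fell by 0.39 and 0.52. Sec24a, another COPII subunit, rose in all 4 groups, by 0.23, 0.24, 0.27 and 0.29. Erlin2, an endoplasmic reticulum protein, was called at 1 day (0.16) and with H2-water (0.18), with 0.12 and 0.07 at 3 and 7 days. Pgrmc1 rose at 3 days (0.13), at 7 days (0.17) and with H2-water (0.22). In the main fit Srebf1 was called and Srebf2 was not, and the difference between them was not tested. Both Srebf2 probes were dim, with signals of 86.6 to 146 and 18.4 to 40.3 units. Srebf2 A_51_P377508 was also lower at 3 days with normexp and loess (-0.22, limma adjusted P = 0.014).

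Of 8 genes of the LXR axis, the oxysterol receptors and their targets beside Abcg5, Abcg8 and Abca1, 3 fell and 0 rose at 3 and at 7 days, and 0 were called at 1 day or with H2-water. Unadjusted, limma gave 5 lower at 3 days, 4 at 7 days, 2 at 1 day, and 1 higher and 2 lower with H2-water. Beside Srebf1, which is also on the list above, these were Nr1h2, which encodes LXR beta, at -0.15 and -0.14, Lpcat3 at -0.38 at 3 days, and Abcg1, a cholesterol exporter, at -0.36 at 7 days. The members Abcg5, Abcg8 and Abca1 had means of -0.05 to 0.20 at these times.

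Among genes of cholesterol carriage, storage and HDL, 19 or 20 of 22 could be tested. At 1 day 0 rose and 1 fell, at 3 days 1 rose and 3 fell, at 7 days 2 rose and 6 fell, and with H2-water 0 were called (limma, unadjusted 1 higher and 5 lower). At 1 day 1 was higher and 4 were lower unadjusted. Npc1, which moves cholesterol out of lysosomes, rose by 0.31 at 3 days and 0.76 at 7 days, while its partner Npc2 was lower at 1 day (-0.23). Pdzk1, the adaptor that stabilises the SR-BI protein in liver, fell by 0.27 at 3 days and by 0.24 at 7 days (adjusted P = 0.000488 and 0.000653), when the Scarb1 transcript was 0.31 and 0.32 higher. Osbp, an oxysterol-binding lipid carrier, fell by 0.27 at 3 days, and the sterol carriers Gramd1b and Stard4 fell by 0.61 and 0.54 at 7 days.

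**Figure D4:**
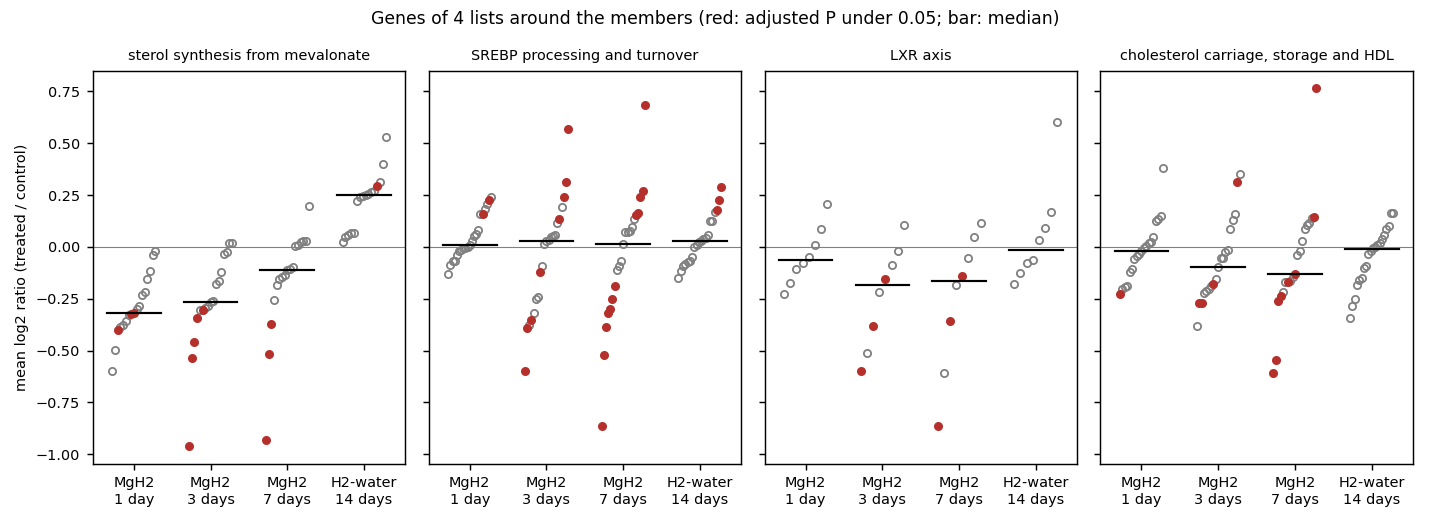
Mean log2 ratio (vertical axis) of the genes of 4 lists in the 4 groups (horizontal axis), with genes of adjusted P under 0.05 in red, others open, and medians as bars. The sterol synthesis genes lie below 0 at 1 day, with a median of -0.32, and above 0 with H2-water, with a median of 0.25.

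For each member, the 3 genes of most similar pattern over the 12 arrays were picked among 11570 genes above background on all of them. Picking the highest of so many correlations over 12 arrays gives high values by itself, and they were not set against chance. The log2 ratios of Arntl, a core clock gene, were most like those of Insig2 (r = 0.967), followed by Rnd1 (0.961) and Tab2 (0.96). For Scarb1 they were Actr10 (0.97), Tango2 (0.959) and Sult1d1 (0.958), and for Insig1 Nkiras2 (0.953), B2m (0.945) and Bloc1s6 (0.941). For Abcg8 they were Dct (0.962), Ier2 (0.939) and Med31 (0.921), for Abcg5 Chd8 (0.906), Bach1 (0.901) and Igf1r (0.894), and for Abca1 Retn (0.923), Anapc13 (0.922) and Katnal1 (0.906). For Scap they were Usp28 (0.94), Gabarapl1 (0.903) and Etnk2 (0.895), and for Srebf2 Ercc3 (0.914), Rab4b (0.877) and Snx21 (0.876). Arrays share slides, and perhaps control RNA, so these are descriptions with no test.

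The tissue and the arrays were checked once for the whole series. All 9 hepatocyte markers were above background on all arrays, as were all 7 Kupffer cell markers. In bulk liver, fewer cells of a type and less RNA per cell cannot be told apart. The summed signal of the Kupffer markers had log2 ratios of -0.39 to -0.30 at 3 days and -0.44 to -0.33 at 7 days, against -0.30 to -0.02 at 1 day and -0.18 to 0.20 with H2-water. That of the 9 hepatocyte markers ran from -0.03 to 0.21 at 3 days and from 0.09 to 0.27 at 7 days, the days on which Scarb1 and Insig2 were called, and from -0.07 to 0.05 at 1 day and -0.01 to 0.10 with H2-water. Single markers did not all follow these sums. With H2-water 5 of the 7 hepatocyte markers tested had means below 0 (median -0.12), and at 7 days 5 of 9 were called higher and 1 lower. Of the 7 Kupffer markers, 6 had means below 0 and 1 above 0 at 3 days, and likewise at 7 days. Summed ratios of the 5 leukocyte markers were -0.48 to -0.28 at 3 days and -0.57 to -0.25 at 7 days. They were below 0 on the other arrays too, at -0.40 to -0.03 at 1 day and -0.33 to -0.06 with H2-water. Of the 4 leukocyte markers tested at 3 days, 1 was called higher and 2 lower. Adipoq, Plin1 and Lep, the defining adipocyte markers, were not well above background on any array, nor was Epcam of bile ducts. Cfd, the other adipocyte marker, was above background on all arrays, with means of 0.31 at 1 day, -2.19 at 3 days, -2.42 at 7 days and 1.33 with H2-water, of which that of 7 days was called. The summed adipocyte signal had ratios of -0.92 to 2.43, -3.25 to -0.86, -3.20 to -0.74 and 0.29 to 1.70 in these groups. The part of these cell types in the results was not tested. Between 51.8% and 56.6% of spots were above background on an array and no spot was saturated.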

How the data were processed

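Liver RNA of db/db mice was measured on 12 two-colour Agilent arrays, 3 for each of 4 groups. The authors extracted the scans with Agilent Feature Extraction (10.10.1.1 for MgH2, 10.7.3.1 for H2-water, per the file headers), which subtracted background and normalised the dyes. The deposited files hold the processed intensity of each dye and its log10 ratio. A second deposited table holds the same ratio on the log2 scale, which differed from the files by at most 1.39e-06. The methods name a larger array than the 44397 features per array in the headers.

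Here the log2 ratio of the processed intensities (Cy5 over Cy3) was taken, outlier spots were left out (160 to 244 an array) and spots averaged per probe. limma 3.58.1 (R 4.3.3) was fitted to all 12 arrays with 4 group means, tested against 0 and against each other (10 comparisons), two-sided, with Benjamini-Hochberg adjustment over probes well above background in both dyes on all arrays compared, and a call at adjusted P under 0.05. P-values measure the spread between pools. The number of arrays limits the precision.

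The members and the lists were chosen with earlier results of these data known, so no list was tested, and the motif letters were chosen after values had been seen. All members are named, from each list at most 3 called genes per group with the largest means, and 3 genes most correlated with each member. Alternatives covered scaling, centring, background correction, the dim-probe filter, flagged spots, the arrays fitted, slide, replicate block, left-out arrays and the methods' t-test. The script was tested on simulated data. The labels number the arrays but state no pairing between days, and the main fit used none. The replicate number was a block in an alternative fit only. On the MgH2 arrays, deviations of same-numbered Cy5 levels had r = -0.296 to 0.176. Deviations of same-numbered ratios correlated in all 9 pairs (r = 0.368 to 0.655). Between MgH2 and H2-water they correlated above 0.1 in 7 of 9 pairs (r = -0.041 to 0.287), with 1 pair below 0.1 for 3 and for 7 days, which were taken as unpaired with H2-water, and none for 1 day.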

Additional observations from a re-analysis of the deposited data

Results flagged for a closer look

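Scarb1 differed between ways of giving H2, by the test of the difference itself: probe A_55_P1954021 was lower with H2-water for 14 days than with MgH2 for 7 days by -0.37 (limma adjusted P = 0.0238; mean log2 ratios -0.04 and 0.32, n = 3 each), and lower than with MgH2 for 3 days by -0.35 (adjusted P = 0.0423; -0.04 and 0.31). All 3 H2-water arrays were below all 6 MgH2 arrays of these days, with no share of all probes at hand to set beside this. The difference from 7 days was no longer called in 4 of 6 fits that left out 1 array, with only those arrays (adjusted P = 0.0599) or with centring on all probes (0.19). That from 3 days, a contrast added after the values were seen, was lost in 5 of 6 such fits. The differences from 7 and 3 days share the H2-water arrays. Agent, route, duration, slide and software version cannot be told apart here.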

How the results depend on the processing

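No member changed direction while called. Counts of called members moved in these fits. At 1 day (1 in the report) there were 0 with channel totals, with centring on the median of all probes, without the dim-probe filter, with only those arrays fitted and with the methods' t-test after adjustment, and 2 with the slide as a random block. In that order, these fits called 11.7%, 3.85%, 1.81%, 0.513%, 0.336% and 14.4% of all probes tested. With normexp and loess (9.86% of all probes), or by the t-test without adjustment (14.9%), the 1 called at 1 day was Abca1 and not Abcg8. At 3 days (2) there were 4 with normexp and loess (20.6% of all probes tested) and 1 without the dim-probe filter (6.16%). There were 0 with only those arrays (1.5%) or the adjusted t-test (0.175%). The slide as a random block (26.1%) added Abcg5 at 3 days, and the t-test without adjustment (19.5%) added the second Scarb1 probe. At 7 days (3) there were 2 with channel totals (29.5% of all probes tested) or centring on all probes (31.9%). There were also 2 with no dim-probe filter (21.7%) or only those arrays (11.2%). Each of these fits lacked the second Scarb1 probe, and the adjusted t-test gave 0 (0.375%). By the t-test without adjustment (25.6%), Scap and Abcg5 were added at 7 days and the second Scarb1 probe was lost. At 14 days (0) there was 1 with only those arrays (2.46% of all probes tested), and 3 by the t-test without adjustment (20.1%). For 7 days minus 1 day (0) there were 2 with the slide as a random block (12% of all probes tested). For 14 minus 7 days (1) there were 2 with normexp and loess (6.75%), no dim-probe filter (16.9%) or the slide (10.8%). Each of these fits of 14 minus 7 days added the second Scarb1 probe. Centring on all probes (21.3%) also gave 2, but these were Insig1 and Abca1, with Scarb1 lost. With only those arrays (2.27%) the 1 called was the second Insig2 probe. For 14 minus 3 days (1), centring on all probes (2.25%) or no dim-probe filter (0.279%) gave 0. With only the arrays of these groups (0.118%) Insig1 was called in place of Scarb1.

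With 1 array left out, the counts ranged from 0 to 1 at 1 day, 1 to 4 at 3 days, 1 to 2 at 7 days and 0 to 0 at 14 days. Of all probes tested, 2.07% to 3.89%, 10.5% to 15%, 15.8% to 20.2% and 2.13% to 2.78% were called in these fits. The member counts ranged from 0 to 1 for 7 minus 1 day (1.03% to 4.57% of all probes) and 0 to 2 for 14 minus 7 days (0.544% to 4.14%). They ranged from 0 to 1 for 14 minus 3 days (0.0425% to 1.03%), and 0 to 0 for the other contrasts.

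With the replicate number as a block, 2 members were called for 7 minus 1 day, as given above, and it changed no other call among the MgH2 days. For 14 minus 7 days and 14 minus 3 days, where 1 of the 3 same-numbered pairs each correlated below 0.1 and the groups were taken as unpaired, the block gave 2 each, adding the second Scarb1 probe (adjusted P = 0.0232 and 0.0352, with 13.3% and 7% of all probes called). For 14 minus 1 day, where all 3 pairs were above 0.1, it changed no call.

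Centring on the median of all probes, dim ones included, moved the median of the tested probes to -0.11 at 7 days and to 0.17 for 14 minus 7 days. Higher calls then made up 15.1% of all calls at 7 days (51.7% uncentred) and 93% at 14 days (55.8%). Centring on the probes above background on all arrays, added after this was seen, kept every count of called members. Channel totals gave 31.2%, 38.4%, 41.5% and 40.3% higher calls in the 4 groups, against 54.9%, 52.6%, 51.7% and 55.8%. With only the arrays of a group fitted, 0.513%, 1.5%, 11.2% and 2.46% of probes were called. The slide correlation was -0.0708. Low signal limits both Srebf2 probes and Abcg8.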
